A study of Mus musculus with 8 samples.

Results

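Orphan G protein-coupled receptor and purinergic receptor genes were examined in dendritic cells of monocyte origin, sorted from the inflamed brain and spinal cord. The group was defined by name: every row of the expression table whose symbol is Gpr with a number and at most 1 letter, P2ry with a number or P2rx with 1 digit, leaving out Gpr34 and P2ry12. It held 42 of the 12256 genes in the table, 33 with Gpr symbols, 6 with P2ry symbols and 3 with P2rx symbols, and all 42 were tested. The cells came from C57Bl/6 mice immunised with the myelin oligodendrocyte glycoprotein peptide of residues 35 to 55, which causes experimental autoimmune encephalomyelitis. Per the design text, injection was intrathecal and took place when disease peaked (2 to 4 days from onset): controls were given PBS and treated mice 1000000 neural precursor cells (NPCs). The sample labels are not uniform on this: a field gives the route as ic, and a field gives the time as 4 days from onset. Both groups carried the disease, and there was no group of healthy mice. Cells were sorted 7 days later from hindbrain and spinal cord as CD45-high, CD11b+, Ly6G-, Ly6C+, CD11c-intermediate and MHC class II+. Each group held 4 libraries (PBS 1 to 4 and NPC A to D), each from a separate pool of 4 to 7 mice, so the spread between libraries is a spread between pools.

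G protein-coupled receptors span the membrane as a bundle of helices and pass a signal from outside the cell to heterotrimeric G proteins within it. An orphan receptor is one whose natural ligand is not settled. Purinergic receptors sense nucleotides that leave stressed, dying or activated cells: P2X receptors are ion channels opened by ATP, and P2Y receptors are G protein-coupled receptors for ATP, ADP, UTP, UDP or sugar nucleotides. In myeloid cells, these families are known for guiding cells to damage, for triggering the inflammasome and for reading acidity and lipids in inflamed tissue.

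Values are log2 normalised expression per gene, in units of log2 reads per 1000000 of a scaled library, and are not divided by gene length unless said. The reads recovered from the table numbered 7702189 to 21068166 in the PBS libraries and 2653818 to 7003542 in the NPC libraries, so mean depth was 3.21 times higher for PBS and depth cannot be told apart from treatment. On the first principal component (31.9% of the variance of all genes), PBS 1 scored -36.2 and NPC A -44.3, while the other 6 libraries lay between 1.98 and 26.0. All 9 markers listed for monocyte-derived dendritic cells were in the table, with a summed linear level of 6909 to 8288 in PBS and 7066 to 8775 in NPC libraries. Ptprc, Itgam, Itgax, H2-Ab1 and Ly6c2 among them belong to the sort gate, so this sum is no independent check of identity. Outside the gate, Ccr2 had 2215 to 13685 reads per library, Fcgr1 266 to 2389, Mgl2 36 to 399 and Cd209a 13 to 126. Of 11 microglia markers 10 were in the table, with a summed level of 276 to 517 and 332 to 567. All 9 T cell markers were in the table too, and their summed level was 72.9 to 82.5 in PBS and 85.8 to 123.0 in NPC libraries, with no overlap, and 8 of the 9 had a higher mean in NPC libraries. The B cell list had 3 of 5 markers in the table (3.84 to 6.81 and 3.81 to 10.8), without Cd79a and Pax5, and the NK cell list 3 of 5 (10.5 to 16.8 and 10.38 to 25.6), without Ncr1 and Eomes. Of 6 platelet markers only Pf4 was in the table. The neural and glial list had 5 of 10 markers in the table, Mbp and Gfap among them. Their summed level was 53.4 to 74.9 in PBS and 46.1 to 77.2 in NPC libraries. Sox2 and Nes, markers of neural precursors on that list, were not in the table. The neutrophil list had 4 of 7 (56.4 to 97.7 and 37.7 to 111.8), and the endothelial list had Pecam1 and Kdr. The summed levels of the neural, neutrophil and endothelial lists overlapped between groups. In bulk libraries such as these, fewer cells of a type and less RNA per cell cannot be told apart.

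The receptor genes as a set covered a wide range of levels. On a scale of reads per kilobase of exon per 1000000, 12 of the 42 averaged 10 or more over the 8 libraries. The highest was Gpr65, a proton-sensing receptor, at 63.8 ± 21.4 in PBS and 75.6 ± 16 in NPC libraries on that scale (SD, n = 4 each). Next were Gpr171, an orphan of the P2Y-like branch (49.3 ± 6.36 and 49.5 ± 16.7), Gpr35 (30.1 ± 3.73 and 35.2 ± 8.62) and Gpr84, a receptor for medium-chain fatty acids (30.1 ± 6.58 and 31.5 ± 7.51). Within libraries, Gpr65 was above Gpr171 per length in 7 of 8, and Gpr171 was above both Gpr35 and Gpr84 in 8 of 8, by a log2 gap of at least 0.19 and at least 0.073. Gpr35 was above Gpr84 in 5 of 8, so the order of these neighbours was not the same in all libraries. P2ry6, Gpr132, P2ry13 and Gpr141 followed at 25.2, 23.7, 22.6 and 19.2 on average over all libraries. At the other end, Gpr85 and Gpr137c averaged 0.20 and 0.19, and 13 members had under 10 reads in at least 1 library. In the annotation, 14 members share exonic bases with another gene, 12 of them with a gene on the opposite strand, and how reads there were counted is not known. Among these, Gpr65 shares 511 of its 2069 exonic bases with Gm47566 and Gpr84 shares 681 of 1725 with Gm49482, so their levels per length and places in the order are uncertain.

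**Figure D1:**
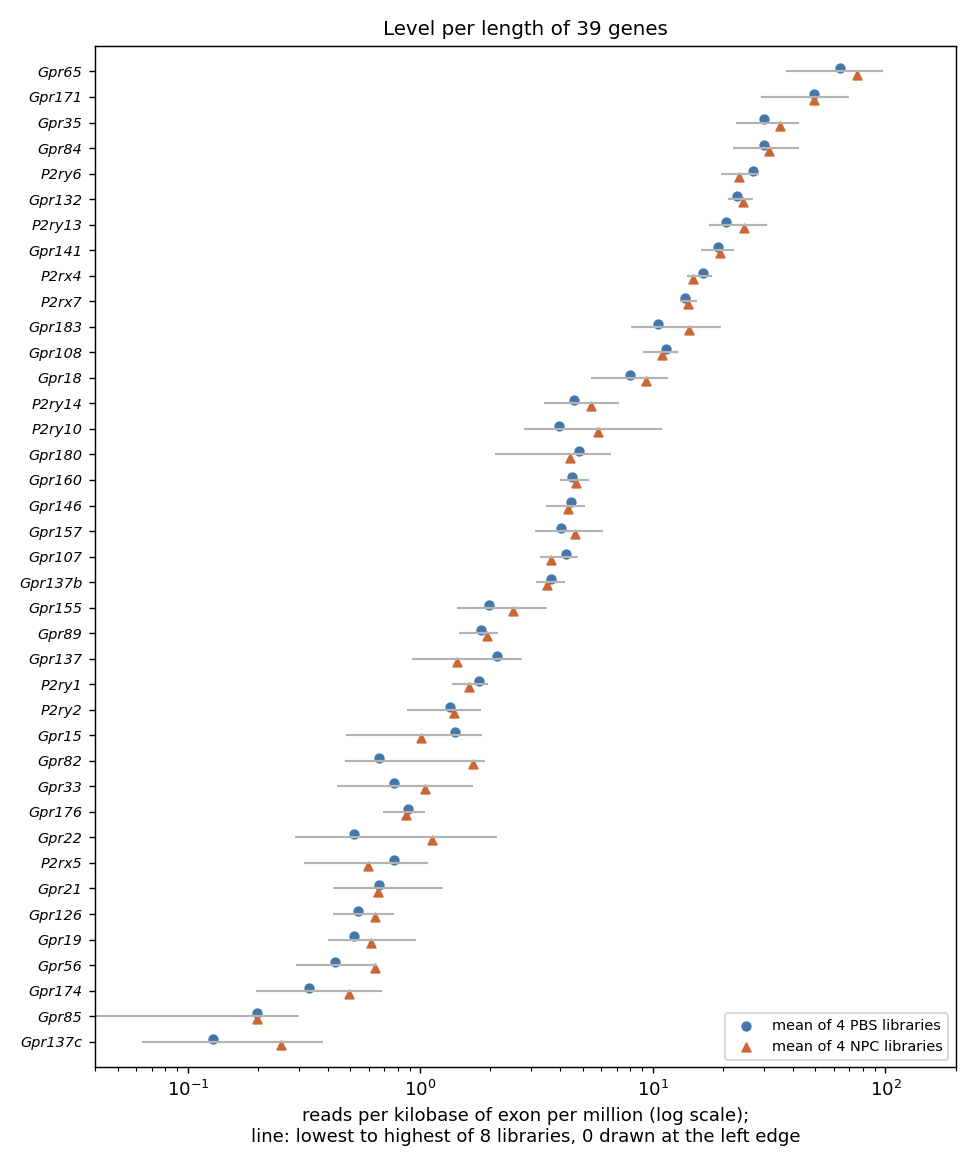
Level per length of 39 of the genes, in reads per kilobase of exon per 1000000 on a log axis. Circles are means of 4 PBS libraries, triangles means of 4 NPC libraries, and lines run from the lowest to the highest of 8 libraries. Gpr65 is highest and 12 genes average 10 or more, while Gpr85 reaches 0 reads in 1 library.

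The receptor genes were compared between NPC and PBS libraries in a fit across the whole table. No member passed: with limma and Benjamini-Hochberg adjustment over all genes, 0 of 42 members reached an adjusted p below 0.05, and so did 0.0% of all genes. With voom weights on the recovered reads the count was also 0. At an unadjusted p under 0.05 there were 4 members, Gpr82, Gpr22 and Gpr56 with higher and Gpr137 with lower values in NPC libraries, where 11.3% of all genes had such a p (6.0% higher and 5.32% lower). That count was 2 without PBS 1, without PBS 2 or without NPC B, where 8.80%, 6.46% and 15.1% of all genes had such a p, and 7 without NPC A, where 12.5% did. The log2 fold change was above 0 for 28 members and below 0 for 14, with a median of 0.09. Over all genes it was above 0 for 52.5% and the median was 0.02. The PBS and NPC libraries did not overlap for 2 members, Gpr82 and Gpr56, both higher in NPC libraries, where 3.53% of all genes stood apart in that direction. No member stood apart in the other direction, against 3.25% of all genes.

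How far a difference could be seen depended on the level. The 95% interval of the log2 fold change lay within a 2-fold difference in either direction for 30 of the 42 members. It did so for 23 of the 24 with a mean log2 value of 3 or more, P2ry10 being the exception, and for 7 of the 18 below 3. All 4 members at an unadjusted p under 0.05 were among the 18 with a mean below 3, where 8.36% of all genes had such a p and 56.8% had a fold change above 0. Of the 24 at 3 or more, 0 had such a p, against 13.1% of all genes there. Among the 24 members above that level the fold changes ran from -0.22 to 0.41, with 16 higher and 8 lower, beside 50% higher among all genes there.

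**Figure D2:**
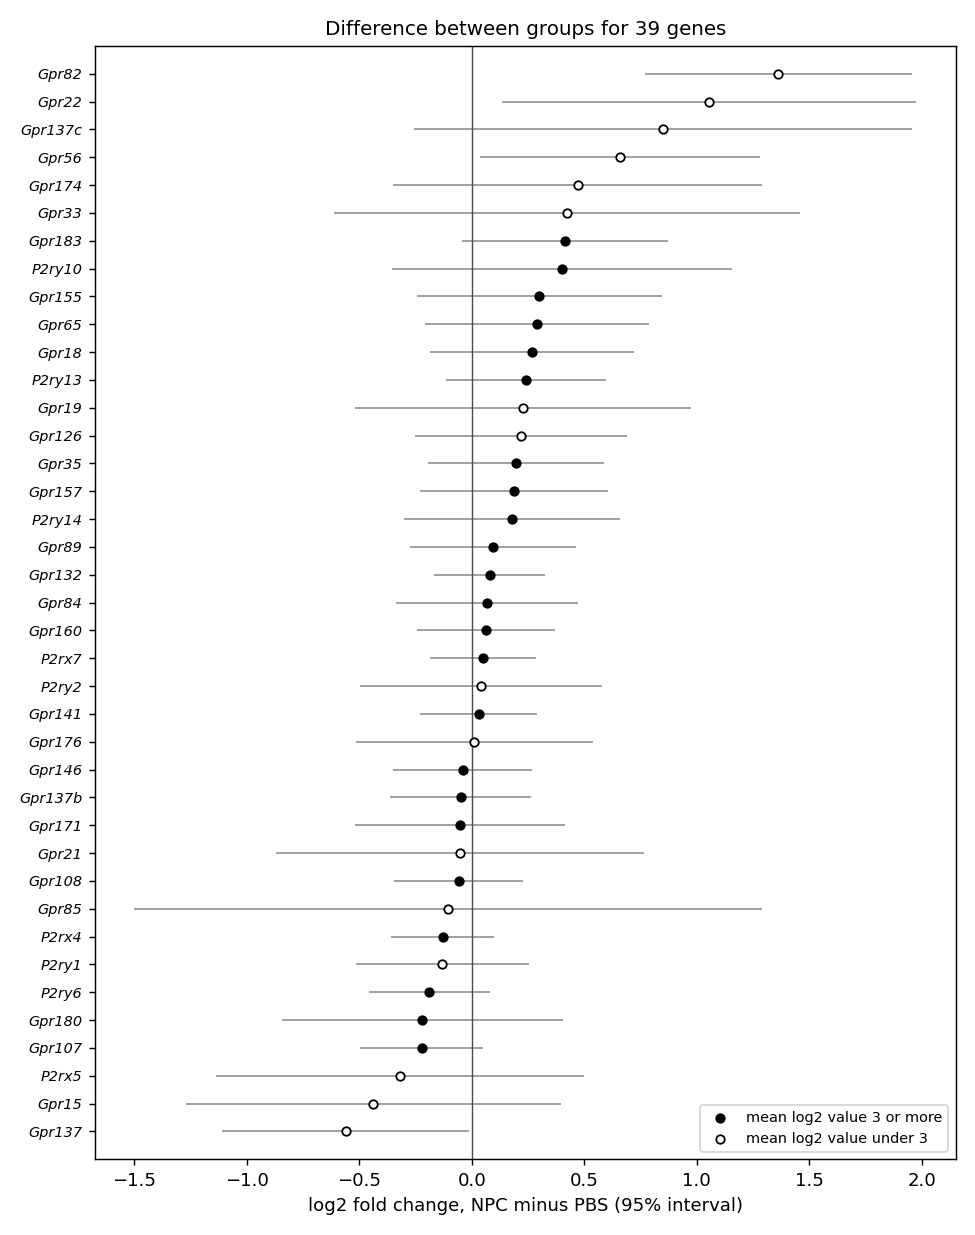
Log2 fold change, NPC minus PBS, of 39 of the genes with its 95% interval from limma, sorted by size. Filled points have a mean log2 value of 3 or more and open points a lower one: the intervals of Gpr82, Gpr22, Gpr56 and Gpr137 leave out 0, and all 4 are open points.

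**Figure D3:**
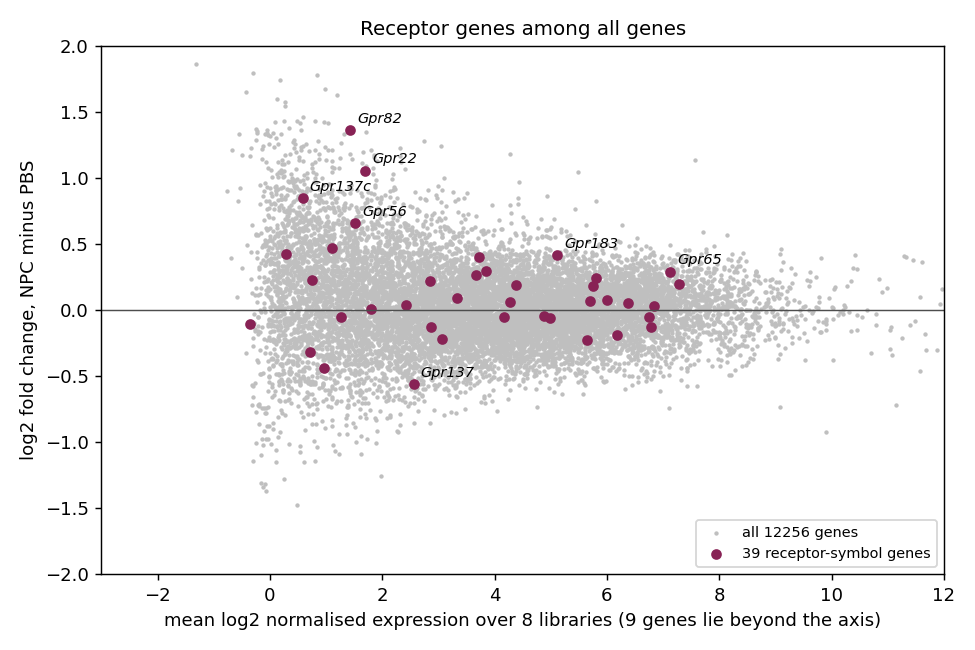
Log2 fold change, NPC minus PBS, against mean log2 normalised expression over 8 libraries for all genes of the table (grey) with 39 receptor genes on top. The spread of all genes widens below a mean of 3, and Gpr82, at a log2 fold change of 1.36, lies within the upper part of that spread.

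Among the P2Y-like orphan receptors, Gpr82 had the highest fold change and the smallest p of all members. Gpr82 is an orphan receptor with no settled ligand, and it was already known from earlier results of these data as a gene near the top of the list. Its log2 value was 0.75, 1.12, 0.31 and 0.78 in PBS 1 to 4 and 2.18, 2.17, 2.28 and 1.77 in NPC A to D. Every NPC library stood above every PBS library, the lowest being NPC D and the highest PBS library being PBS 2. The log2 fold change was 1.36 (SE 0.27, 95% interval 0.77 to 1.96), and limma's adjusted p over all genes was 0.382. It rested on few reads, 26, 42, 11 and 15 in the PBS libraries and 18, 11, 17 and 22 in the NPC libraries. With the reads of all libraries thinned to the depth of the shallowest, the values were 0.45, 1.55, 0.45 and 1.35 in the PBS group against 2.29, 2.17, 2.29 and 2.04 in the NPC group. In that thinning, a single random draw of reads, the groups did not overlap. The log2 fold change was 1.25 (limma adjusted p = 0.463). Another draw was not made, and the share of all genes apart at that depth was not counted. Per length, Gpr82 was at 0.66 ± 0.16 in PBS and 1.68 ± 0.24 in NPC libraries, in reads per kilobase of exon per 1000000 (SD, n = 4 each), which placed it at rank 30 of the 42 members by the mean of all libraries.

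The other 2 P2Y-like orphans had overlapping groups. Gpr171 stood at 6.47, 6.87, 6.88 and 6.85 in PBS 1 to 4 and at 6.02, 7.28, 6.82 and 6.75 in NPC A to D. Its lowest values were in PBS 1 and NPC A, and the groups overlapped (log2 fold change -0.05, SE 0.22). The sign of that fold change turned without NPC A (0.18) and without PBS 1 and NPC A together (0.082). Gpr174, a receptor for lysophosphatidylserine known from lymphocytes, was at 0.78 to 1.05 in PBS libraries and at 1.93, 1.73, 1.55 and 0.18 in NPC A to D. NPC D was lowest of all 8 libraries and the other 3 NPC libraries were above every PBS library (log2 fold change 0.47, SE 0.38), on 7 to 40 reads per library. The summed level of T cell markers was higher in NPC libraries as well, at 95.5, 123.0, 85.8 and 104.8 in NPC A to D. The part of T cells in the values of Gpr174 was not tested.

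Gpr82 lies inside another gene, as do several members. In GENCODE vM21 on the mouse build mm10, Gpr82 runs along chromosome X (13661363 to 13667433, plus strand) within the span of Cask, which is on the opposite strand, and shares no exonic base with it. In all, 9 of the 42 members lie within the span of another gene without sharing exonic bases with it. Each is on the strand opposite to that gene. They are Gpr146 within 3110082I17Rik, Gpr171, P2ry13 and P2ry14 within Med12l, Gpr18 and Gpr183 within Ubac2, Gpr21 within Strbp, Gpr22 within Cog5 and Gpr82 within Cask. Gpr21 also shares 74 exonic bases with Rabgap1, a gene on its own strand. No source used here gives the strand setting of the read counting, so unspliced reads of a host gene that cover a nested gene cannot be told apart from reads of the nested gene. Of these 9, 6 had a log2 fold change above 0, with a median of 0.24.

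The sequences around the start of 4 nested genes are printed because the values of a nested gene and its host are set side by side here. They run from 250 bases before to 50 bases after the annotated start, from RefSeq on GRCm38.p6. Capitals mark any match, on either strand, to 3 motifs that do not overlap in these windows: an ETS-type core (GAGGAA), an AP-1 site (TGANTCA) and a TATA-type box (TATAAA). Of all 32817 windows of this length, 28.3%, 7.81% and 13.6% held these motifs in turn. The 4 windows are Gpr82 at chrX:13661113-13661412 (plus strand), Gpr22 at chr12:31713834-31714133 (minus strand), Gpr183 at chr14:121965144-121965443 (minus strand) and P2ry13 at chr3:59210833-59211132 (minus strand).
Gpr82: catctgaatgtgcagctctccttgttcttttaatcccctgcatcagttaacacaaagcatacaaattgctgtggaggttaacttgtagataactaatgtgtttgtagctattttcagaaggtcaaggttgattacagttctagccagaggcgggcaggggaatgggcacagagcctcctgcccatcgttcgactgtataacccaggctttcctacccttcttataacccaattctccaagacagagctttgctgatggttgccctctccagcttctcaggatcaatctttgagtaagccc
Gpr22: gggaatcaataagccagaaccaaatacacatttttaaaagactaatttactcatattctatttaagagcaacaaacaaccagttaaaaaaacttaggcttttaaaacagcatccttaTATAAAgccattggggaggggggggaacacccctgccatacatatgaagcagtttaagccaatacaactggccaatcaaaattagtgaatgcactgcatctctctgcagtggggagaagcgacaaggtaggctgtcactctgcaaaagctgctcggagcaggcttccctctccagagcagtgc
Gpr183: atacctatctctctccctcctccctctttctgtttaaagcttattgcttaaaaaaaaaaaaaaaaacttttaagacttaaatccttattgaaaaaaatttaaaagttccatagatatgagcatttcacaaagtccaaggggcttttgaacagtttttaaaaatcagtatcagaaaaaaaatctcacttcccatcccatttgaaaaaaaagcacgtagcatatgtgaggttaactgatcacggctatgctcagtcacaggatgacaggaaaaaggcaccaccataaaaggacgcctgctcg
P2ry13: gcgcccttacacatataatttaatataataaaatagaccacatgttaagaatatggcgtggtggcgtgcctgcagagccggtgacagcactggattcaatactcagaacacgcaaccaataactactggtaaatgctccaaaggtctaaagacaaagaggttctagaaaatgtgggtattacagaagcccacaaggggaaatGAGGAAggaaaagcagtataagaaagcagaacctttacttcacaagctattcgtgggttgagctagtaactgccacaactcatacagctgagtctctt
The Gpr82 and Gpr183 windows held none of the 3 motifs, the Gpr22 window held 1 TATA-type box and the P2ry13 window 1 ETS-type core. A letter match is not a binding site. The GC content of the windows was 46.0% for Gpr82, 43.0% for Gpr22, 35.3% for Gpr183 and 42.3% for P2ry13, against a median of 52.7% over all windows. Of the 42 members, 35 matched at least 1 window, 51 windows in all, with a median GC content of 55.7%. Of these 51 windows, 20 held the ETS-type core, 8 the AP-1 site and 5 the TATA-type box.

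The host gene of Gpr82 was also higher in NPC libraries. Cask, a scaffold kinase gene, was at 4.59, 4.90, 4.81 and 4.96 in PBS 1 to 4 and at 5.07, 5.10, 5.30 and 5.37 in NPC A to D. The groups did not overlap, where 3.53% of all genes stood apart in that direction. The log2 fold change of Cask was 0.39 (SE 0.13, limma adjusted p = 0.390). Gpr34, the neighbour of Gpr82 at the Cask locus and a receptor gene used as a microglia marker, was at 2.26 to 3.75 in PBS and 3.13 to 4.39 in NPC libraries, with overlap (0.55, SE 0.33). Of the 4 genes listed for this locus 3 were in the table, each with a fold change above 0, where 52.5% of all genes had one. At the Ubac2 locus the direction of host and nested genes differed: Ubac2 had a log2 fold change of -0.20, Gpr18 of 0.27 and Gpr183 of 0.41. At the Med12l locus the host had 0.39, P2ry13 0.24, P2ry14 0.18 and Gpr171 -0.05. P2ry12, a locus neighbour left out of the group and a microglia marker, had 0.44 (SE 0.33), with overlap. None of these genes passed the test.

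**Figure D4:**
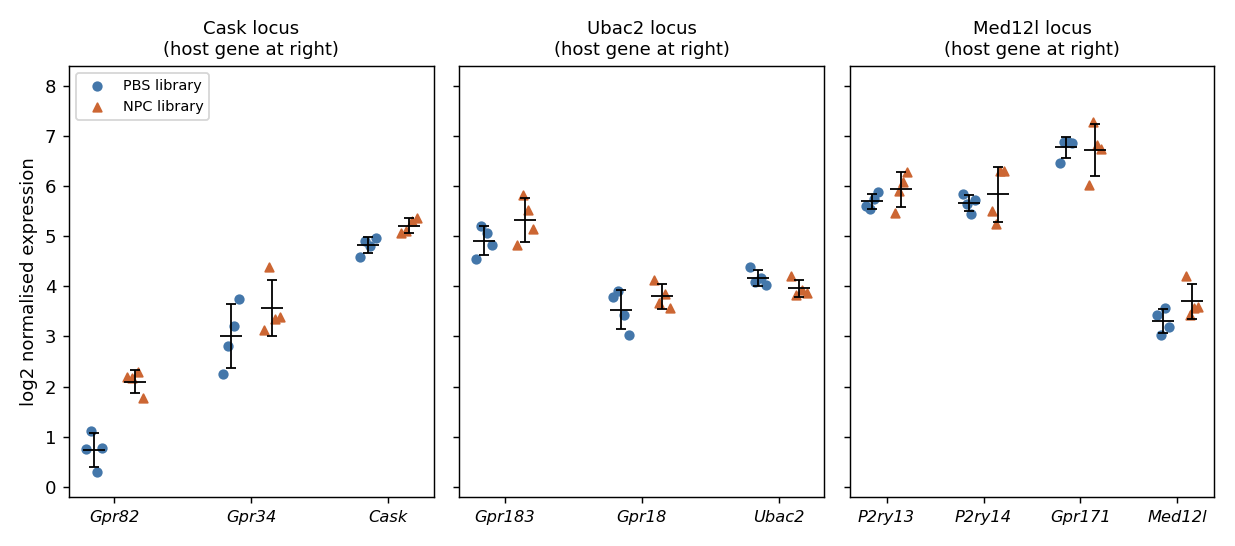
Log2 normalised expression of genes at 3 loci, with circles for PBS and triangles for NPC libraries, and bars for mean ± SD of 4 libraries. The host gene is at the right of each panel. In the Cask locus Gpr82 and Cask have non-overlapping groups, while all genes of the other loci overlap.

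The P2Y receptors for nucleotides were expressed in every library. P2ry6, the receptor for UDP, was at 6.37, 6.37, 6.10 and 6.24 in PBS 1 to 4 and at 5.82, 6.07, 6.25 and 6.18 in NPC A to D. NPC A was lowest and the groups overlapped (log2 fold change -0.19, SE 0.12, adjusted p in limma 0.589; -0.10 without NPC A). P2ry13, a receptor for ADP, was at 5.61, 5.55, 5.74 and 5.88 in the PBS group against 5.46, 5.91, 6.08 and 6.28 in the NPC group. NPC B, C and D were above every PBS library and NPC A was below all of them (0.24, SE 0.16). The log2 fold change was 0.12 without NPC D and 0.40 without NPC A. P2ry14, the receptor for UDP-glucose, was at 5.83, 5.65, 5.44 and 5.71 in the PBS group against 5.51, 5.24, 6.30 and 6.30 in the NPC group. Here NPC C and D were highest and NPC B lowest, so that the NPC libraries (SD 0.55) spread more widely than the PBS libraries (SD 0.17). Its fold change of 0.18 (SE 0.22) turned to -0.075 once GC content and transcript length were corrected for. It was 0.024 without NPC D, 0.025 without NPC C, 0.11 without PBS 3, 0.29 without NPC A and 0.38 without NPC B.

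P2ry10, another lysophosphatidylserine receptor and 1 of 3 members on chromosome X, varied most among the P2Y genes. It was at 3.07, 3.95, 3.49 and 3.59 in PBS 1 to 4 and at 3.08, 5.03, 3.42 and 4.17 in NPC A to D. NPC B stood highest, PBS 1 and NPC A lowest, and the log2 fold change was 0.40 (SE 0.35). Leaving out NPC B gave 0.032, leaving out PBS 1 gave 0.25 and leaving out NPC A gave 0.68. NPC B also had the highest summed level of T cell markers (123.0) and of microglia markers (567), and their part in the value of P2ry10 was not tested. P2ry1, a receptor for ADP, was at 2.81 to 3.08 in PBS and 2.58 to 3.0 in NPC libraries (-0.13, SE 0.18), with a log2 fold change of -0.057 to -0.20 when 1 library was left out. P2ry2, a receptor for ATP and UTP, was at 2.16 to 2.69 and 1.83 to 2.85 (0.04, SE 0.25). Both had overlapping groups. Of the 6 P2Y genes, 4 had a fold change above 0 and 2 below, and the median was 0.11.

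Of the 3 P2X channels, P2rx4 and P2rx7 were well expressed. P2rx7, the ATP-gated channel whose opening triggers inflammasome assembly, was at 6.29, 6.37, 6.45 and 6.31 in PBS 1 to 4 and at 6.50, 6.29, 6.53 and 6.30 in NPC A to D. The whole range over 8 libraries was 0.24, the smallest of the 42 members, and the log2 fold change was 0.05 (SE 0.11, 95% interval -0.19 to 0.29), or 0.0090 to 0.089 when 1 library was left out. P2rx4, an ATP-gated channel that also resides in lysosomes, was at 6.77, 6.98, 6.77 and 6.84 in the PBS group against 6.69, 6.83, 6.70 and 6.62 in the NPC group. NPC A, C and D were below every PBS library and NPC B was within the PBS range, with a log2 fold change of -0.13 (SE 0.11, 95% interval -0.36 to 0.10), or -0.082 without PBS 2. Camkk2, listed as a locus neighbour of P2rx4 and P2rx7, had a log2 fold change of -0.22 (SE 0.25), with overlap. P2rx5 was near the floor, at 4 to 28 reads per library (0.88 ± 0.37 in PBS and 0.56 ± 0.58 in NPC libraries, log2 scale, SD, n = 4 each). Its log2 fold change was -0.32, with an interval of -1.14 to 0.50, and it was -0.045 without NPC D, -0.15 without PBS 3 and -0.49 without NPC A.

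**Figure D5:**
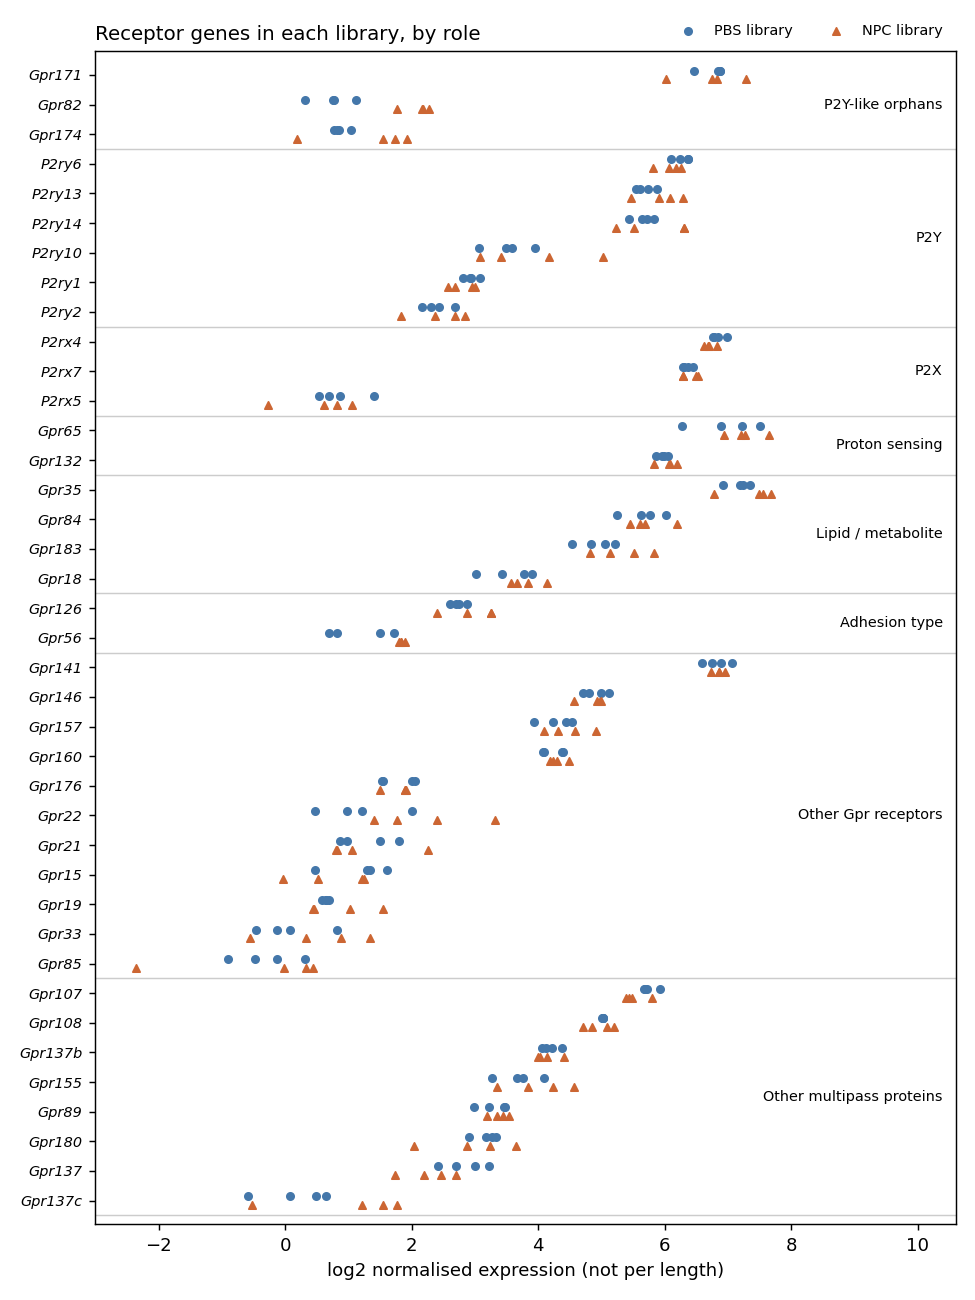
Log2 normalised expression of 39 of the genes in each library, grouped by role, with circles for PBS and triangles for NPC libraries. Levels of different genes are not per length and are not to be compared along the axis. Gpr82 and Gpr56 are the members whose groups do not overlap, and P2rx7 has the narrowest range, 0.24.

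Gpr65 and Gpr132 are receptors that read extracellular acidity, and neither passed the test. Gpr65 was at 6.28, 7.23, 6.90 and 7.5 in PBS 1 to 4 and at 7.27, 7.66, 7.21 and 6.94 in NPC A to D. PBS 1 was lowest and the other PBS libraries covered the NPC range except for NPC B (log2 fold change 0.29, SE 0.23). Without PBS 1 it was 0.058, without NPC B 0.16 and without PBS 4 0.47. Gpr132, which also responds to lipids, was at 5.87, 5.96, 5.99 and 6.05 in the PBS group against 5.84, 6.20, 6.06 and 6.09 in the NPC group. It was among the steadiest members, with a range of 0.36 over 8 libraries and a log2 fold change of 0.08 (SE 0.11), or 0.029, 0.046 and 0.15 with NPC B, PBS 1 or NPC A left out in turn.

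Among the lipid and metabolite receptors, 4 of 4 had fold changes above 0, none past the test. Gpr183, the oxysterol receptor that positions dendritic cells and lymphocytes in lymphoid tissue, was at 4.54, 5.21, 5.06 and 4.83 in PBS 1 to 4 and at 4.81, 5.83, 5.52 and 5.14 in NPC A to D. NPC B and NPC C were above every PBS library, and NPC A and D were within the PBS range (log2 fold change 0.41, SE 0.21, 95% interval -0.04 to 0.87, limma adjusted p = 0.487). Without NPC B the log2 fold change was 0.25 and without NPC A it was 0.58. Of the 4 enzyme genes of the oxysterol ligand pathway, 3 were in the table and 0 passed: Ch25h, which makes the precursor, had a log2 fold change of -0.12, Cyp27a1 of 0.09 and Hsd3b7, which degrades the ligand, of 0.02.

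Gpr35 and Gpr84 had overlapping groups. Gpr35, a receptor for which several metabolite ligands have been proposed, was at 6.92, 7.24, 7.20 and 7.36 in PBS 1 to 4 and at 6.78, 7.49, 7.56 and 7.68 in NPC A to D. NPC B, C and D were above every PBS library, NPC A was lowest of all 8, and the log2 fold change was 0.20 (SE 0.18). Leaving out 1 library moved it between 0.096 (without NPC D) and 0.39 (without NPC A), and it was 0.11 without PBS 1. Gpr84 was at 6.03, 5.63, 5.25 and 5.78 in the PBS group against 5.45, 5.62, 5.70 and 6.19 in the NPC group (0.07, SE 0.19), and its sign turned without PBS 3 or without NPC D (-0.075 and -0.085). Gpr18 was at 3.02 to 3.91 and 3.57 to 4.14 (0.27, SE 0.21).

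Gpr56 and Gpr126 are adhesion-type receptors, which carry long extracellular parts, and both were low. Gpr56, known for roles in brain development and in cytotoxic lymphocytes and now named Adgrg1, was at 0.70, 0.82, 1.71 and 1.5 in PBS 1 to 4 and at 1.83, 1.89, 1.80 and 1.83 in NPC A to D. The NPC values were nearly the same (SD 0.04) and just above PBS 3, so the groups did not overlap, on 9 to 34 reads per library. The log2 fold change was 0.66 (SE 0.29, 95% interval 0.03 to 1.28, limma adjusted p = 0.422). In the single draw at equal depth the groups overlapped, with 0.82 to 1.89 in PBS and 1.73 to 2.17 in NPC libraries. The log2 fold change was then 0.67. Gpr126, which is needed for myelination by Schwann cells, was at 2.60 to 2.88 and 2.40 to 3.26 (0.22, SE 0.22).

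Of the 11 other receptors with Gpr symbols, 7 had fold changes above 0. Gpr22, an orphan known from heart and brain, was at 2.01, 0.98, 1.21 and 0.47 in PBS 1 to 4 and at 3.32, 2.40, 1.40 and 1.77 in NPC A to D. PBS 1 and NPC A were each highest in their group and the groups overlapped, on 9 to 63 reads per library. The log2 fold change was 1.06 (SE 0.42, 95% interval 0.13 to 1.98, limma adjusted p = 0.402), and it was 0.69 without NPC A. Its host gene Cog5, which encodes a Golgi subunit, had 0.24. Gpr141, an orphan of myeloid cells, was the highest of the 11 per length, at 19.1 ± 2.62 in PBS and 19.3 ± 1.15 in NPC libraries, in reads per kilobase of exon per 1000000 (SD, n = 4 each). Its log2 value was 6.89, 7.06, 6.59 and 6.75 in the PBS group against 6.85, 6.74, 6.87 and 6.95 in the NPC group (0.03, SE 0.12). The remaining 9 of this role had log2 fold changes between -0.44 (Gpr15, a homing receptor of T cells) and 0.42 (Gpr33). Gpr85 had 0 of 2653818 reads in NPC B, which allows up to 3 reads, or 1.17 per 1000000 of the scaled library, with counting error only considered.

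The 8 multipass proteins with Gpr symbols that are not classical receptors had 3 fold changes above 0 and 5 below, none past the test. Gpr137, a lysosomal membrane protein gene, was at 3.22, 2.70, 3.0 and 2.42 in PBS 1 to 4 and at 2.70, 1.73, 2.20 and 2.47 in NPC A to D. The lowest 2 values were in NPC B and C and the groups overlapped (log2 fold change -0.56, SE 0.25, 95% interval -1.11 to -0.01, limma adjusted p = 0.429). In the single draw at equal depth the groups did not overlap, with 2.40 to 3.43 in PBS and 1.73 to 2.17 in NPC libraries. The log2 fold change was then -0.96, and another draw was not made. The share of all genes that stood apart in that draw was not counted. In the annotation, exonic bases of Gpr137 overlap those of Bad, a cell death gene on the opposite strand, whose log2 fold change was -0.21. Gpr107, a gene of retrograde membrane transport, was at 5.93, 5.68, 5.72 and 5.67 in the PBS group against 5.80, 5.39, 5.43 and 5.48 in the NPC group. NPC B, C and D were below every PBS library and NPC A was above PBS 2, 3 and 4 (-0.22, SE 0.13). Gpr137c was at 0.15 ± 0.55 and 1.01 ± 1.04 on the log2 scale (SD, n = 4 each), with 2 to 27 reads per library and a log2 fold change of 0.85 (interval -0.26 to 1.96). That value was 1.36 without NPC C, 0.60 without NPC D and 0.40 with library weights. Gpr108, Gpr137b and Gpr89, the last a gene of Golgi acidity, had log2 fold changes of -0.06, -0.05 and 0.09.

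The libraries PBS 1 and NPC A held the lowest values of several members. Both were below all the other 6 libraries for 9 members (Gpr126, Gpr132, Gpr155, Gpr157, Gpr171, Gpr176, Gpr183, Gpr35 and P2ry10), or 21.4%, against 9.86% of all genes. They were both above the other 6 for Gpr107 alone, or 2.38%, against 8.83% of all genes. As a description of these 8 libraries, the SD within NPC libraries exceeded that within PBS libraries for 32 of 42 members, and for 68.7% of all genes. With PBS 1 and NPC A left out, 0 members passed, 6 had an unadjusted p under 0.05, against 9.89% of all genes, and 27 had a fold change above 0, against 52.0% of all genes.

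Base composition moved with the fold changes of all genes, so the members were also set against genes of like GC content. Among genes with a transcript GC content below the median of 49.0%, 66.4% had a fold change above 0, and among those at or above it 37.8%. Of the 23 members below that median 16 had a fold change above 0, with a median of 0.22, and of the 19 at or above it 12 did, with a median of 0.05. Transcript GC was 35% for Gpr82, 35.4% for Gpr22, 44.9% for Gpr183, 56.2% for Gpr56 and 59.2% for Gpr137. After correction of the libraries for GC content and transcript length, the log2 fold change was 1.11 for Gpr82, 0.77 for Gpr22, 0.33 for Gpr183 and -0.39 for Gpr137. Gpr82 was then the 1 member of 38 with an unadjusted p under 0.05, against 9.49% of the 11368 genes in that fit. Gpr56 and Gpr126 carry older symbols and were not in that correction.

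Genes around these receptors were read from lists of their ligands, partners and brakes. Apart from Entpd1 and Gnaq, the genes named from these lists are those of smallest unadjusted p. Of 24 genes that release, break down or sense extracellular nucleotides and adenosine, 17 were in the table, 15 with a fold change above 0 and 2 below, a median of 0.13 and 0 past the test, where 52.5% of all genes had a fold change above 0. Entpd1, which encodes the ectonucleotidase CD39, was at 7.67 to 7.93 in PBS and 7.62 to 8.00 in NPC libraries (log2 fold change 0.08, SE 0.12). Ada, the adenosine deaminase gene, was at 1.34 to 1.84 and 1.62 to 2.29 (0.44, SE 0.25), and Slc29a3, a lysosomal nucleoside transporter gene, was at 8.21 to 8.54 and 8.34 to 8.83 (0.17, SE 0.13). Adk, the adenosine kinase gene, had a log2 fold change of -0.39 (SE 0.33).

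Of the 20 G protein subunit genes, 17 were in the table, 9 with a fold change above 0 and 8 below, and 0 passed. Gnb2, a beta subunit gene, was at 5.57, 5.04, 4.96 and 4.91 in PBS 1 to 4 and at 4.46, 4.88, 4.23 and 3.98 in NPC A to D. The groups did not overlap and the log2 fold change was -0.73 (SE 0.20, limma adjusted p = 0.382). Over all genes, 3.25% stood apart with lower and 3.53% with higher values in NPC libraries. Gnaq, an alpha subunit gene picked after its values were seen, also stood apart, in the other direction, at 7.23 to 7.53 in PBS and 7.54 to 7.61 in NPC libraries (0.18, SE 0.10). Gngt2, a gamma subunit gene, had a log2 fold change of -0.37 (SE 0.15) and Gnb5, another beta subunit gene, of 0.83 (SE 0.45). Of 9 receptor kinase and arrestin symbols, 6 were in the table, 2 above 0 and 4 below, and 0 passed. Arrb1, the gene of an arrestin that uncouples receptors from G proteins, was at 6.44 to 6.59 in PBS and 6.01 to 6.40 in NPC libraries without overlap (-0.26, SE 0.11, limma adjusted p = 0.422). Grk5 and Adrbk1, genes of receptor kinases, had 0.28 and -0.23. Of 9 RGS genes, whose products speed the shut-off of G proteins, 8 were in the table, 5 above 0 and 3 below, and 0 passed. Rgs12 had a log2 fold change of 0.81 (SE 0.32), Rgs10 of -0.38 (SE 0.19) and Rgs19 of 0.37 (SE 0.19). In limma, 2 of 17 subunit genes, 1 of 6 kinase and arrestin genes and 1 of 8 RGS genes had an unadjusted p under 0.05. Of all genes 11.3% did.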

How the data were processed

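The authors deposited log2 normalised expression, 1 column per library. The submitters' processing notes name Trimmomatic, STAR 2.3.0, HTSeq 0.5.3, limma and the build mm10; annotation, strand setting and low-gene filter are not stated in any source used. Linear values equal (whole reads + 0.5) times a step particular to each library (100% whole, tolerance 0.01), from which reads and scaled library sizes were recovered. In shallower libraries the added 0.5 lifts low genes more. Reads are not independent molecules.

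Deposited values were tested in R 4.3.3 with limma 3.58.1, using treatment alone, a trended prior variance and two-sided p-values adjusted by Benjamini-Hochberg across the table (threshold 0.05). The script was tested on simulated reads. Exon lengths and GC came from GENCODE vM21. Groups came from the sample titles. Named were Gpr82, the P2ry and P2rx members, the 6 Gpr members of highest mean, the 8 members of smallest p and locus neighbours. From each pathway list, up to 3 genes of smallest unadjusted p were named. Other members, Bad, Entpd1, Gnaq and marker genes are context chosen after their values were seen. The members and lists were chosen with earlier results of these data known. Alternatives changed the prior, library weights, normalization, offset, low-gene filter, depth (thinning), GC correction, threshold (0.10) or libraries included. Thinning was a single random draw of reads. Single values of 3 members are not reported here or plotted by name; counts over the members include them.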

Additional observations from a re-analysis of the deposited data

Results flagged for a closer look

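In groups of 4 libraries, a library was noted where its gap to the nearest other library, as a part of the group's range, passed Dixon's critical value at 95%. This held for 5 of 84 groups of members, 4 of which are given, and chance gives about 1 in 20, or 4.2 of 84. Gpr171 in PBS 1 was at 6.47, against 6.85 to 6.88 in the other PBS libraries. Gpr176, an orphan receptor gene, was at 1.5 in NPC A against 1.89 to 1.91 in the other NPC libraries. Gpr146, a receptor gene linked to cholesterol, was at 4.56 in NPC B against 4.93 to 5.0. Gpr85 was at -2.35 in NPC B, the value given to 0 reads there, against -0.02 to 0.43 in the other NPC libraries. NPC B was the shallowest library, with 2653818 reads.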

How the results depend on the processing

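No member and no gene passed the adjusted threshold under any of the 20 refits, or at a threshold of 0.10. No paired analysis was possible because the groups share no replicate labels. Of 429 fold changes of the 22 named members under alternatives, 412 kept their sign and side of the threshold and 17 turned in sign, and the smallest adjusted p was 0.134. The count of all genes at an unadjusted p under 0.05 was 2139 with library weights and 792 (without PBS 2) to 1846 (without NPC B) when a library was left out. The count of members at that p was 0 with genes of mean under 3 left out, which left 24 members, 1 with GC content and length corrected, and 2 to 7 when a library was left out. Of those 24 members, 16 had a fold change above 0. In the single draw at equal depth the sign turned for Gpr141 (-0.015), P2rx7 (-0.013), P2ry1 (0.0055) and P2ry2 (-0.18). With GC and length corrected it turned for Gpr141 (-0.16) and P2ry14 (-0.075), and after quantile normalization for P2ry2 (-0.0056). Without PBS 1 and NPC A it turned for P2rx7 (-0.0058) and Gpr171 (0.082). When a library was left out the fold change ran from -0.046 to 0.11 for Gpr141, from -0.239 to 0.18 for Gpr171, from -0.085 to 0.19 for Gpr84 and from -0.099 to 0.24 for P2ry2. The causes were not tested. Shallow NPC libraries limit the low members.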
